A study of Mus musculus with 6 samples.

Results

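Transforming growth factor beta (TGF-beta) signalling was followed through 10 genes chosen by name, namely the ligands TGFB1, TGFB2 and TGFB3, the receptors TGFBR1, TGFBR2 and TGFBR3, the signal transducers SMAD2, SMAD3 and SMAD7, and the activin subunit gene INHBA. All 10 were found among the 16191 rows of the deposited expression table, and all 10 passed the filter on low values. The samples are 3 libraries labelled AAV-PDGF-D and 3 labelled AAV-GFP, described as RNA of the RPE-choroid complex (retinal pigment epithelium with the vascular layer beneath it) of C57BL/6J mice collected 4 weeks after vectors were injected under the retina. AAV-PDGF-D carries human platelet-derived growth factor D, AAV-GFP carries green fluorescent protein in its place, and the study placed both behind the VMD2 promoter to restrict expression to pigment epithelial cells. The labels do not say whether the 3 libraries of a group came from separate mice or from pools, so p-values measure only the spread between these libraries, which may be technical.

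The rows of the table are human genes, although the labels give mouse tissue. Of 16191 rows, 15504 pair a human Ensembl ID with its symbol, and the other 687 bear names of unannotated Homo sapiens loci. The row of PDGFD, the vector's gene, averaged 5.96 FPKM in the AAV-PDGF-D libraries and 6.76 FPKM in the AAV-GFP libraries, so it was not higher under the label AAV-PDGF-D, and each direction given here is one between labels. FPKM is the number of sequenced fragments scaled to gene length and to the mapped fragments of the library, so levels of different genes can be set side by side. Of 15 pigment epithelium markers, 11 were at 1 FPKM or more in every library, while RPE65, the retinoid isomerase that defines the tissue, averaged 0.869 FPKM. BEST1, at a mean of 0.424 FPKM, and DCT, at 0.139 FPKM, stayed below that level throughout. TTR fell to 0.814 FPKM in AAV-PDGF-D replicate 1. The 11 that passed include KRT8, KRT18 and EZR, which are common to simple epithelia, beside PMEL and TYRP1, of melanosomes. The count of 11 is therefore not evidence of a pigment epithelium. Only 2 of 8 endothelial markers reached 1 FPKM in every library and PECAM1, a defining endothelial gene, averaged 0.167 FPKM, the exceptions being KDR at a mean of 9.06 FPKM and EGFL7 at 27.3 FPKM. PTPRC, the leukocyte antigen CD45, averaged 0.0315 FPKM. HBA1, a hemoglobin chain, was at 219 FPKM in AAV-PDGF-D replicate 3 and 168 FPKM in AAV-GFP replicate 1, and at 0.319 FPKM or less in the other libraries. Libraries are therefore called by their labels, and the values are not tied here to a species or a cell type.

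TGF-beta ligands are secreted in a latent form that is stored in the matrix and freed by integrins and proteases. The active ligand binds the type II receptor TGFBR2, which phosphorylates the type I receptor TGFBR1. TGFBR1 then phosphorylates SMAD2 and SMAD3, which enter the nucleus with SMAD4 and switch on matrix, contractile and growth arrest genes, while SMAD7 closes the loop by blocking the receptor. In pigment epithelium the pathway is known for driving epithelial cells towards a mesenchymal, matrix-producing state.

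Among the 10 genes, the receptor TGFBR2 was higher in the AAV-PDGF-D libraries, at 1.27 times its AAV-GFP level, and the ligand TGFB1 was lower, at 0.845 times its AAV-GFP level. TGFBR2 had an adjusted p of 0.00907 (limma) and passed in 17 of 17 alternative analyses. TGFB1 was less firm, with an adjusted p of 0.0931 (limma), and passed in 8 of 17. Neither difference reached the 1.5-fold that, together with an adjusted p of at most 0.1 and a mean of at least 1 FPKM, made a call. No member was called (0 of 10, limma), against a background of 3.76% of the 11444 rows that could be called (2.01% higher and 1.75% lower). By the adjusted p alone, 1 member was higher and 1 lower, which is 20% of the members against 32.7% of all rows (20.9% higher and 11.7% lower). At an unadjusted p of at most 0.05, 3 of 10 members passed, against 38.7% of all rows. The libraries of the groups did not overlap for 3 of 10 members, against 43.7% of all rows. The median log2 fold change, AAV-PDGF-D over AAV-GFP, was -0.043 over the members and 0.037 over all rows. For 9 of 10 members the 95% interval of the fold lay inside 1.5-fold in either direction, TGFB3 being the exception, as was the case for 9202 of 11444 rows. These libraries hold bulk RNA, in which fewer cells of a type and less RNA per cell cannot be told apart.

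**Figure D1:**
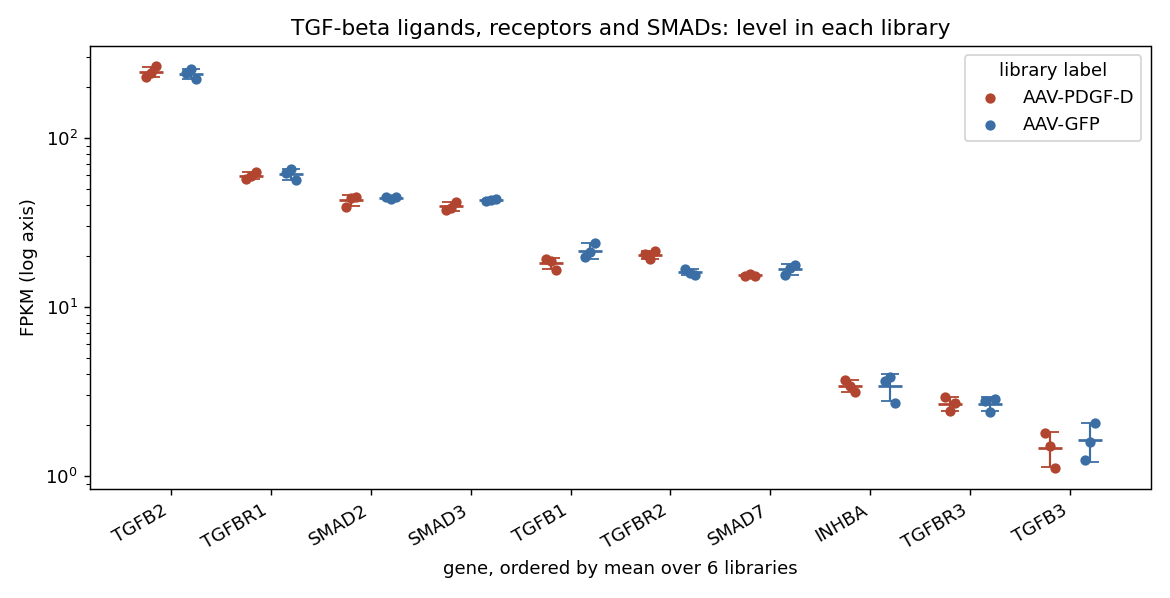
Level of each of the 10 genes in FPKM (log axis), ordered by the mean over 6 libraries, with a point per library, a horizontal line at the group mean and bars of 1 SD (n = 3), AAV-PDGF-D left and AAV-GFP right. TGFB2 stands highest and TGFB3 lowest, and TGFB1, TGFBR2 and SMAD3 are the genes whose groups do not overlap.

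The 10 genes spanned a wide range of levels. TGFB2 was highest, followed by TGFBR1, then SMAD2 and SMAD3, then TGFB1, TGFBR2 and SMAD7, then INHBA and TGFBR3, with TGFB3 lowest. Neighbours within each of those sets overlapped over the 6 libraries, while the sets themselves did not. SMAD2 exceeded SMAD3 in 6 of 6 libraries although their ranges overlapped, and INHBA exceeded TGFBR3 in 5 of 6. TGFB1 and TGFBR2 exchanged places between the labels, since TGFB1 was above TGFBR2 in 0 of 3 AAV-PDGF-D libraries and in 3 of 3 AAV-GFP libraries. TGFBR2 was also above SMAD7 in 3 of 3 AAV-PDGF-D libraries and in 1 of 3 AAV-GFP libraries.

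Of the ligands, TGFB2 was the dominant transcript. It was at 231, 242 and 266 FPKM in the AAV-PDGF-D libraries, against 241, 257 and 222 FPKM in the AAV-GFP libraries. The groups overlapped, and the log2 fold change of 0.04 ± 0.070 (SE, 95% interval -0.12 to 0.20) had an adjusted p of 0.763 (limma). TGFB2 made up 91.6%, 92.3% and 93.8% of the summed FPKM of the 3 ligands in the AAV-PDGF-D libraries, against 92.0%, 91.9% and 89.5% in the AAV-GFP libraries.

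TGFB1, the ligand best known from fibrosis (ENSG00000105329), was at 19.3, 18.7 and 16.6 FPKM in the AAV-PDGF-D libraries, against 19.6, 21.0 and 24.0 FPKM in the AAV-GFP libraries. Every AAV-PDGF-D library lay below every AAV-GFP library, although AAV-PDGF-D replicate 1 and AAV-GFP replicate 1 were nearly level. The means were 18.2 ± 1.42 FPKM in the AAV-PDGF-D libraries and 21.6 ± 2.23 FPKM in the AAV-GFP libraries (SD, n = 3 each), and the log2 fold change was -0.24 ± 0.089 (SE, 95% interval -0.45 to -0.04, adjusted p = 0.0931, limma). The size of the change fell without AAV-PDGF-D replicate 3 or AAV-GFP replicate 3, but not without either replicate 2. This difference lay near the threshold of the adjusted p. It passed the adjusted p in 8 of 17 alternative analyses, and it no longer passed without AAV-PDGF-D replicate 2 (-0.27, adjusted p = 0.149), AAV-PDGF-D replicate 3 (-0.18, adjusted p = 0.247), AAV-GFP replicate 2 (-0.26, adjusted p = 0.145) or AAV-GFP replicate 3 (-0.16, adjusted p = 0.250), nor with a replicate block (adjusted p = 0.166).

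TGFB3 was the scarcest ligand. It was at 1.80, 1.51 and 1.11 FPKM in the AAV-PDGF-D libraries, against 1.24, 1.58 and 2.07 FPKM in the AAV-GFP libraries. The groups overlapped widely, and the log2 fold change of -0.13 ± 0.23 (SE) left a 95% interval from -0.67 to 0.40 (adjusted p = 0.732, limma), which does not exclude a fall of 1.5-fold. INHBA encodes the beta A chain, of which a pair forms activin A, a ligand that also acts through SMAD2 and SMAD3. Its level was 3.68, 3.40 and 3.14 FPKM in the AAV-PDGF-D libraries, against 3.64, 3.84 and 2.71 FPKM in the AAV-GFP libraries. INHBA overlapped between the groups, with a log2 fold change of 0.02 ± 0.15 (SE, 95% interval -0.32 to 0.36, adjusted p = 0.949, limma).

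TGFBR2 was the member with the clearest difference. The type II receptor (ENSG00000163513) was at 20.6, 19.2 and 21.4 FPKM in the AAV-PDGF-D libraries, against 16.7, 16.0 and 15.5 FPKM in the AAV-GFP libraries. The lowest AAV-PDGF-D library stood above the highest AAV-GFP library, and the means of 20.4 ± 1.12 FPKM in the AAV-PDGF-D libraries and 16.0 ± 0.60 FPKM in the AAV-GFP libraries (SD, n = 3 each) differed by more than the spread within either group. The log2 fold change was 0.34 ± 0.063 (SE, 95% interval 0.20 to 0.49, adjusted p = 0.00907, limma). It stayed past the adjusted p in 17 of 17 alternative analyses, with log2 fold changes between 0.31 and 0.39 and adjusted p between 0.00735 and 0.0695. Its whole interval lay under the 1.5-fold threshold.

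TGFBR1, the type I receptor that TGFBR2 activates, was at 57.1, 59.7 and 62.9 FPKM in the AAV-PDGF-D libraries, against 62.0, 65.2 and 56.2 FPKM in the AAV-GFP libraries. The groups overlapped, with a log2 fold change of -0.03 ± 0.065 (SE, 95% interval -0.18 to 0.12, adjusted p = 0.804, limma). TGFBR3, or betaglycan, is a co-receptor that presents ligand, TGFB2 above all, to TGFBR2. It was at 2.92, 2.41 and 2.70 FPKM in the AAV-PDGF-D libraries, against 2.78, 2.38 and 2.85 FPKM in the AAV-GFP libraries. The group means of TGFBR3 were nearly equal, and the 95% interval of its log2 fold change ran from -0.29 to 0.30 (adjusted p = 0.987, limma).

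**Figure D2:**
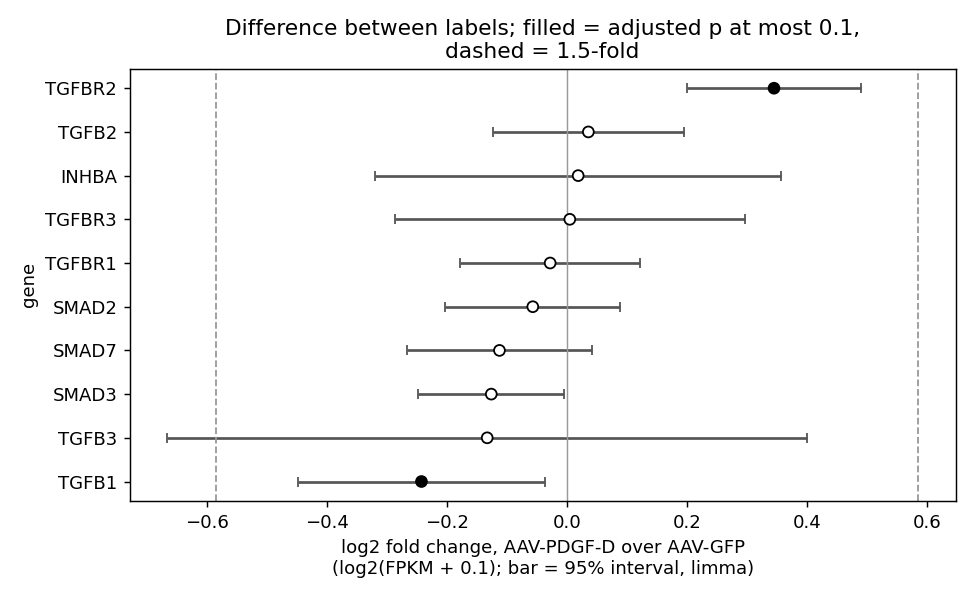
Log2 fold change of each of the 10 genes, AAV-PDGF-D over AAV-GFP, on log2(FPKM + 0.1), with 95% intervals from limma, filled points at an adjusted p of at most 0.1 and dashed lines at 1.5-fold. TGFBR2 lies right of 0 at 0.34 and TGFB1 left of 0 at -0.24, and only the interval of TGFB3 crosses a dashed line.

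Of the SMADs that the receptor activates, neither was called. SMAD3 was at 37.7, 38.4 and 41.9 FPKM in the AAV-PDGF-D libraries, against 42.6, 42.8 and 43.3 FPKM in the AAV-GFP libraries. The groups did not overlap, but the gap between AAV-PDGF-D replicate 3 and the lowest AAV-GFP library was small, and the log2 fold change of -0.13 ± 0.053 (SE) did not pass the adjusted p (0.133, limma). It did pass after scaling each library to TPM (-0.16, adjusted p = 0.0849) or by the median of ratios (-0.16, adjusted p = 0.0638), and without AAV-PDGF-D replicate 3 (-0.17, adjusted p = 0.0664). SMAD2 was at 38.8, 44.4 and 44.98 FPKM in the AAV-PDGF-D libraries, against 44.97, 43.4 and 44.8 FPKM in the AAV-GFP libraries. AAV-PDGF-D replicate 1 was the low library, the other five being nearly level (log2 fold change -0.06 ± 0.064, SE, adjusted p = 0.571, limma).

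SMAD7 is the inhibitory SMAD whose transcription the pathway itself induces. It was at 15.3, 15.7 and 15.2 FPKM in the AAV-PDGF-D libraries, against 15.4, 16.9 and 17.8 FPKM in the AAV-GFP libraries. The AAV-PDGF-D libraries were within 1 FPKM of each other and overlapped only AAV-GFP replicate 1, with a log2 fold change of -0.11 ± 0.067 (SE, 95% interval -0.27 to 0.04, adjusted p = 0.275, limma).

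Extremes of the 10 genes gathered in the libraries numbered 3. AAV-PDGF-D replicate 3 held the highest TGFB2, TGFBR2 and SMAD2 and the lowest TGFB1, TGFB3 and SMAD7 of the 6 libraries. AAV-GFP replicate 3 held the highest TGFB1, TGFB3, SMAD3 and SMAD7 and the lowest TGFB2, TGFBR1, TGFBR2 and INHBA. AAV-PDGF-D replicate 3 is one of the libraries with hemoglobin. The other, AAV-GFP replicate 1, held no highest or lowest value of the 10 genes, and AAV-GFP replicate 3 had HBA1 at 0 FPKM. Relative depth, estimated from the lowest values, was highest in AAV-GFP replicate 3 (1.19) and lowest in AAV-PDGF-D replicate 3 and AAV-GFP replicate 1 (1 in each). AAV-PDGF-D replicate 3 also had the most rows at 0 FPKM (1459). The part of hemoglobin or of depth in these extremes was not tested.

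Ratios between members of the same library do not depend on how libraries are scaled, and 7 were computed, chosen after the values had been seen. TGFBR2 per TGFBR1 was 0.361, 0.322 and 0.341 in the AAV-PDGF-D libraries, against 0.269, 0.245 and 0.276 in the AAV-GFP libraries. The balance of the receptor pair was thus 1.30 times as high with AAV-PDGF-D, without overlap. TGFBR2 per TGFB1 was 1.07, 1.03 and 1.29 in the AAV-PDGF-D libraries, against 0.850, 0.759 and 0.646 in the AAV-GFP libraries, a 1.51-fold difference without overlap. TGFBR3 per TGFBR2 was lower with AAV-PDGF-D, at 0.142, 0.125 and 0.126, against 0.167, 0.149 and 0.184 in the AAV-GFP libraries. Each of these 3 ratios contains TGFBR2, so they are not independent of its difference or of each other. TGFBR2 per TGFB1 sets the member seen to be higher over the one seen to be lower. For each of the 3 the two-sided exact permutation p was 0.1, the smallest that 3 against 3 libraries can give. It was 0.233 after Benjamini-Hochberg adjustment over the 7, which does not allow for choosing them after the values were seen. The groups overlapped for the other 4, TGFB1 per TGFB2 (exact p = 0.3), TGFB3 per TGFB2 (exact p = 0.8), SMAD3 per SMAD2 (exact p = 0.3) and SMAD7 per SMAD3 (exact p = 1).

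**Figure D3:**
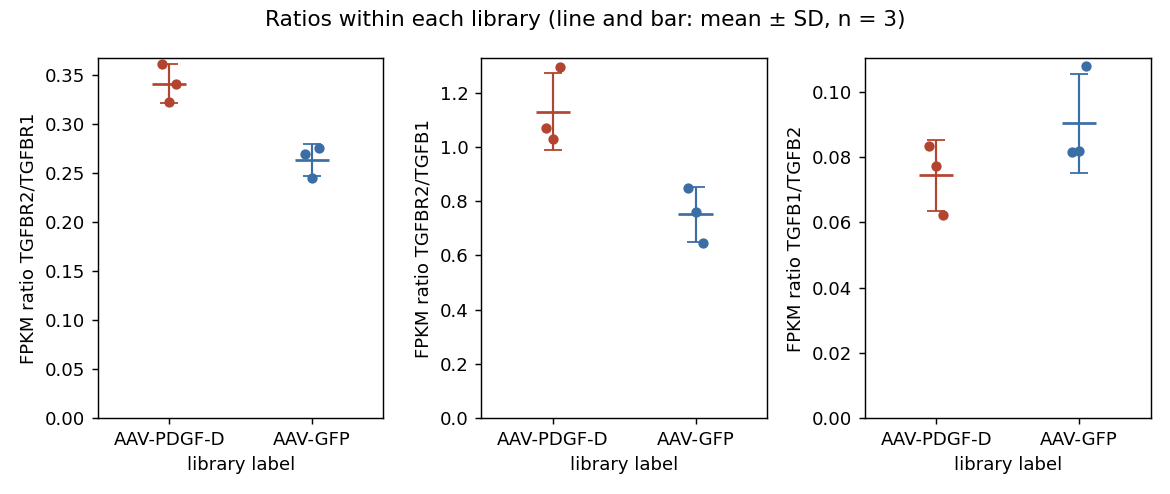
Ratio of FPKM within each library for TGFBR2 over TGFBR1, TGFBR2 over TGFB1 and TGFB1 over TGFB2, with a point per library, a line at the mean and bars of 1 SD (n = 3), AAV-PDGF-D left and AAV-GFP right, axes starting at 0. The first ratio runs from 0.322 to 0.361 with AAV-PDGF-D and from 0.245 to 0.276 with AAV-GFP, and the third overlaps.

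The rest of the pathway was read from lists by role. Proteins that hold TGF-beta latent or free it were the first of these, with 13 genes that could be called. None was called (3.76% of all rows). By the adjusted p 1 was higher and 4 were lower, 38.5% of the list and near the 32.7% of all rows (20.9% higher and 11.7% lower), and the list's median log2 fold change was -0.003. LTBP3, which binds the latent complex to the matrix, was at 148, 139.5 and 137 FPKM in the AAV-PDGF-D libraries, against 175, 184 and 191 FPKM in the AAV-GFP libraries. The groups were clearly apart (log2 fold change -0.37 ± 0.049, SE, adjusted p = 0.00319, limma). ITGAV, the integrin alpha V chain that pulls latent TGF-beta open, averaged 352 ± 12.8 FPKM in the AAV-PDGF-D libraries and 421 ± 10.6 FPKM in the AAV-GFP libraries (SD, n = 3 each, log2 fold change -0.26, adjusted p = 0.00695, limma). DCN, the proteoglycan decorin, which binds and sequesters TGF-beta, was at 5.41, 6.11 and 6.76 FPKM in the AAV-PDGF-D libraries, against 9.79, 7.55 and 8.88 FPKM in the AAV-GFP libraries. DCN was named after its values were seen, because its log2 fold change of -0.51 (adjusted p = 0.0221, limma) passed 1.5-fold when AAV-PDGF-D replicate 3 (-0.59) or AAV-GFP replicate 2 (-0.61) was left out, and it was then called. LTBP4, another latent complex binder, was also lower by the adjusted p (-0.27), and THBS1, thrombospondin 1, an activator of latent TGF-beta, was the one that was higher (0.29, adjusted p = 0.0602, limma). Both were named after their values were seen. LTBP4 no longer passed without both libraries with hemoglobin (-0.20, adjusted p = 0.154), a fit with fewer libraries in each group. THBS1 still passed without AAV-GFP replicate 2, but its adjusted p ran from 0.118 to 0.178 when any other single library was left out. Without both libraries with hemoglobin its log2 fold change was 0.24 (adjusted p = 0.267, limma).

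The list of activin and inhibin ligands and their binders, which also holds other ligands of the superfamily such as GDF11 and GDF15, had 5 genes that could be called. None was called (3.76% of all rows). By the adjusted p 1 (GDF15) was higher and 2 (FSTL3 and INHBB) were lower, 60% of this short list, against 32.7% of all rows (20.9% higher and 11.7% lower). The median log2 fold change was -0.0014. GDF15, a stress-induced distant member of the TGF-beta superfamily, was at 83.1, 81.4 and 81.3 FPKM in the AAV-PDGF-D libraries, against 52.7, 62.3 and 64.3 FPKM in the AAV-GFP libraries. The groups were well separated (log2 fold change 0.46 ± 0.073, SE, adjusted p = 0.00575, limma). FSTL3, a secreted protein that traps activin, was at 258, 253 and 237 FPKM in the AAV-PDGF-D libraries, against 307, 302 and 322 FPKM in the AAV-GFP libraries (log2 fold change -0.31 ± 0.049, SE, adjusted p = 0.00516, limma). INHBB, the activin beta B chain, named after its values were seen, was also lower, with means of 6.31 ± 0.40 FPKM in the AAV-PDGF-D libraries and 8.26 ± 0.46 FPKM in the AAV-GFP libraries (SD, n = 3 each, log2 fold change -0.38, adjusted p = 0.0164, limma).

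Other receptors and co-receptors of the family had 8 genes that could be called, of which none was called and 1 was higher by the adjusted p (12.5% of the list, against 32.7% of all rows), with a median log2 fold change of 0.029. That one was ENG, endoglin, a co-receptor named after its values were seen, at 7.11, 7.13 and 6.72 FPKM in the AAV-PDGF-D libraries, against 5.21, 5.53 and 4.32 FPKM in the AAV-GFP libraries. Its groups did not overlap (log2 fold change 0.48 ± 0.11, SE, adjusted p = 0.0181, limma). BAMBI, a pseudoreceptor without a kinase that dampens signalling, averaged 37.3 FPKM in the AAV-PDGF-D libraries and 37.6 FPKM in the AAV-GFP libraries. ACVR1, a type I receptor used by bone morphogenetic proteins and activins, averaged 16.2 FPKM in the AAV-PDGF-D libraries and 15.5 FPKM in the AAV-GFP libraries, and neither passed the adjusted p (0.914 for BAMBI and 0.469 for ACVR1, limma).

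The other SMADs numbered 5, with none called, 1 lower by the adjusted p (20% of the list, against 32.7% of all rows) and a median log2 fold change of -0.13. SMAD6, an inhibitory SMAD acting mainly on the bone morphogenetic protein branch, was at 49.2, 45.6 and 45.6 FPKM in the AAV-PDGF-D libraries, against 53.1, 51.7 and 59.2 FPKM in the AAV-GFP libraries. Its log2 fold change of -0.22 (adjusted p = 0.0430, limma) no longer passed without AAV-PDGF-D replicate 2 (adjusted p = 0.126), AAV-PDGF-D replicate 3 (adjusted p = 0.119) or AAV-GFP replicate 3 (adjusted p = 0.112), without both libraries with hemoglobin (still -0.22, adjusted p = 0.179), nor with no variance trend (adjusted p = 0.108). SMAD4, the shared partner of the activated SMADs, named after its values were seen, was at 16.0 ± 0.20 FPKM in the AAV-PDGF-D libraries and 16.3 ± 0.58 FPKM in the AAV-GFP libraries (SD, n = 3 each, adjusted p = 0.832, limma). SMAD5, of the bone morphogenetic protein branch, had a log2 fold change of 0.15 and an adjusted p of 0.101 (limma).

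**Figure D4:**
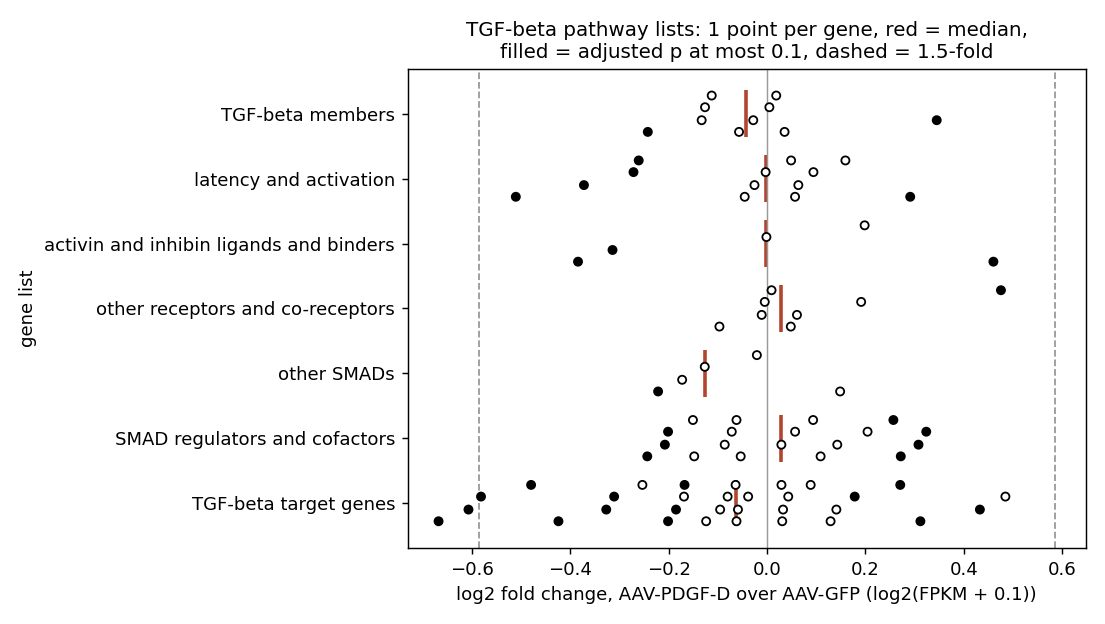
Log2 fold change of every gene that could be called in the 10 members and 6 further pathway lists, AAV-PDGF-D over AAV-GFP, 1 point per gene with arbitrary vertical offsets, filled at an adjusted p of at most 0.1, red lines at the list medians and dashed lines at 1.5-fold. Medians lie between -0.13 and 0.029, and only NOX4 and ELN of the target list lie outside the dashed lines.

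Regulators and cofactors of the SMADs had 19 genes that could be called, of which none was called, 4 were higher and 3 lower by the adjusted p, with a median log2 fold change of 0.029. These 7 are 36.8% of the list, near the 32.7% of all rows (20.9% higher and 11.7% lower). FKBP1A, which binds the type I receptor and keeps it silent without ligand, was at 346, 369.9 and 349.7 FPKM in the AAV-PDGF-D libraries, against 293, 283 and 285 FPKM in the AAV-GFP libraries (log2 fold change 0.31 ± 0.043, SE, adjusted p = 0.00372, limma). STRAP, which holds SMAD7 at the receptor, was at 129, 142 and 141 FPKM in the AAV-PDGF-D libraries, against 110.1, 109.8 and 109 FPKM in the AAV-GFP libraries (0.32 ± 0.047, SE, adjusted p = 0.00427, limma). The groups did not overlap for either gene. SMURF2, a ubiquitin ligase that SMAD7 brings to the receptor, was higher (0.27, adjusted p = 0.0338, limma), and the transcriptional brake SKI was lower (-0.24, adjusted p = 0.0147, limma). SMURF2 and SKI were named after their values were seen. SMURF2 no longer passed without AAV-PDGF-D replicate 3 (adjusted p = 0.105). Without both libraries with hemoglobin, neither SMURF2 (0.24, adjusted p = 0.188) nor SKI (-0.24, adjusted p = 0.105) passed. That fit has fewer libraries in each group, and both log2 fold changes stayed near those of all libraries.

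LDLRAD4, a membrane protein that keeps SMAD2 and SMAD3 from the receptor, sat just under the level needed for a call, with a mean of 0.999 FPKM, and was named after its values were seen. It was at 0.411, 0.584 and 0.579 FPKM in the AAV-PDGF-D libraries, against 1.003, 2.17 and 1.25 FPKM in the AAV-GFP libraries. No library overlapped, and the log2 fold change was -1.28 ± 0.29 (SE, adjusted p = 0.0187, limma). It was called lower wherever its mean came to 1 FPKM, as without AAV-PDGF-D replicate 1 (-1.14), 2 (-1.35) or 3 (-1.34). It was also called lower with TPM scaling (-1.38), where the mean of 1 was asked in TPM. In these libraries 1 TPM is less than 1 FPKM, so that bar was lower. Fold changes at such low FPKM depend on the pseudocount, and the value was -0.67 with a pseudocount of 1.

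Target genes that TGF-beta is known to induce, or in a few cases to regulate, in other cells were the largest list, with 31 that could be called. Of these 2 were called lower, NOX4 and ELN, and none higher, against 1.75% and 2.01% of all rows. By the adjusted p alone 4 were higher and 10 lower, 45.2% of the list, against 32.7% of all rows (20.9% higher and 11.7% lower). The median log2 fold change was -0.064. NOX4, an NADPH oxidase that makes hydrogen peroxide in activated fibroblasts, was at 11.1, 12.4 and 11.99 FPKM in the AAV-PDGF-D libraries, against 17.97, 19.7 and 19.0 FPKM in the AAV-GFP libraries. It fell by 0.67 ± 0.067 on the log2 scale (SE, adjusted p = 0.00131, limma), and it was called in all 17 alternative analyses, with log2 fold changes from -0.71 to -0.63. ELN, elastin, was at 12.9, 11.7 and 10.4 FPKM in the AAV-PDGF-D libraries, against 15.0, 18.045 and 20.8 FPKM in the AAV-GFP libraries. It fell by 0.61 ± 0.13 on the log2 scale (SE, adjusted p = 0.0138, limma), a call that was lost without AAV-PDGF-D replicate 3 (-0.53) or AAV-GFP replicate 3 (-0.50) and with a pseudocount of 1 (-0.57).

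Besides TPM1, the targets higher by the adjusted p were BHLHE40, CDKN1A and KLF10. BHLHE40, a transcriptional repressor of the clock, was at 13.4, 14.2 and 13.8 FPKM in the AAV-PDGF-D libraries, against 9.79, 10.9 and 9.85 FPKM in the AAV-GFP libraries (log2 fold change 0.43 ± 0.069, SE, adjusted p = 0.00578, limma). CDKN1A, the cell cycle inhibitor p21, averaged 125 ± 6.94 FPKM in the AAV-PDGF-D libraries and 101 ± 9.22 FPKM in the AAV-GFP libraries (SD, n = 3 each, log2 fold change 0.31, adjusted p = 0.0223, limma). Neither gene's groups overlapped. KLF10, an early TGF-beta response factor, had a log2 fold change of 0.27 (adjusted p = 0.0336, limma), which no longer passed without AAV-PDGF-D replicate 2 (adjusted p = 0.110), AAV-GFP replicate 3 (adjusted p = 0.104) or both libraries with hemoglobin (0.26, adjusted p = 0.180).

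CCN2, connective tissue growth factor, averaged 946 ± 44.7 FPKM in the AAV-PDGF-D libraries and 1002 ± 91.8 FPKM in the AAV-GFP libraries (SD, n = 3 each), a difference within the spread (adjusted p = 0.457, limma). PMEPA1, a feedback inhibitor that binds SMADs, was lower (-0.20, adjusted p = 0.0444, limma). It no longer passed without AAV-PDGF-D replicate 3 (adjusted p = 0.120), AAV-GFP replicate 2 (adjusted p = 0.108) or AAV-GFP replicate 3 (adjusted p = 0.112), nor without both libraries with hemoglobin (-0.17, adjusted p = 0.186) or with a replicate block (adjusted p = 0.106). JUNB, an immediate target, was lower (-0.48, adjusted p = 0.0156, limma). So were ACTA2 (-0.17, adjusted p = 0.0329), CDKN2B (-0.33, adjusted p = 0.0186), TIMP3 (-0.19, adjusted p = 0.0727) and TGFB1I1 (-0.31, adjusted p = 0.00838, limma). The alternative analyses did not cover ACTA2, CDKN2B, TIMP3 or TGFB1I1. BHLHE40, CDKN1A, KLF10, CCN2, PMEPA1, JUNB, ACTA2, CDKN2B, TIMP3 and TGFB1I1 were named after their values were seen.

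COL3A1, a fibrillar collagen chain named after its values were seen, was at 4.17, 4.04 and 3.86 FPKM in the AAV-PDGF-D libraries, against 5.86, 5.70 and 6.69 FPKM in the AAV-GFP libraries, and its log2 fold change of -0.58 (adjusted p = 0.00637, limma) fell just short of 1.5-fold. It was called lower without AAV-PDGF-D replicate 1 (-0.61) or 2 (-0.59) and without AAV-GFP replicate 1 (-0.61) or 2 (-0.63), and with TPM scaling (-0.62). Of the chains of type I collagen, also named after their values were seen, COL1A2 was lower by the adjusted p (-0.42) and COL1A1 did not pass it (-0.12). TAGLN, the actin-binding protein transgelin and the most abundant target, averaged 1446 ± 47.6 FPKM in the AAV-PDGF-D libraries and 1545 ± 79.9 FPKM in the AAV-GFP libraries (SD, n = 3 each, adjusted p = 0.239, limma). TPM1, tropomyosin 1, averaged 1473 ± 76.4 FPKM in the AAV-PDGF-D libraries and 1303 ± 89.9 FPKM in the AAV-GFP libraries (SD, n = 3 each). The groups of TPM1 overlapped. Its log2 fold change of 0.18 (adjusted p = 0.0856, limma) no longer passed without AAV-PDGF-D replicate 2 (adjusted p = 0.202), AAV-PDGF-D replicate 3 (adjusted p = 0.216), AAV-GFP replicate 1 (adjusted p = 0.173), AAV-GFP replicate 3 (adjusted p = 0.235) or both libraries with hemoglobin (0.15, adjusted p = 0.344). Nor did it pass with TPM scaling (adjusted p = 0.155), median-of-ratios scaling (adjusted p = 0.141), no filter (adjusted p = 0.136) or no variance trend (adjusted p = 0.173).

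**Figure D5:**
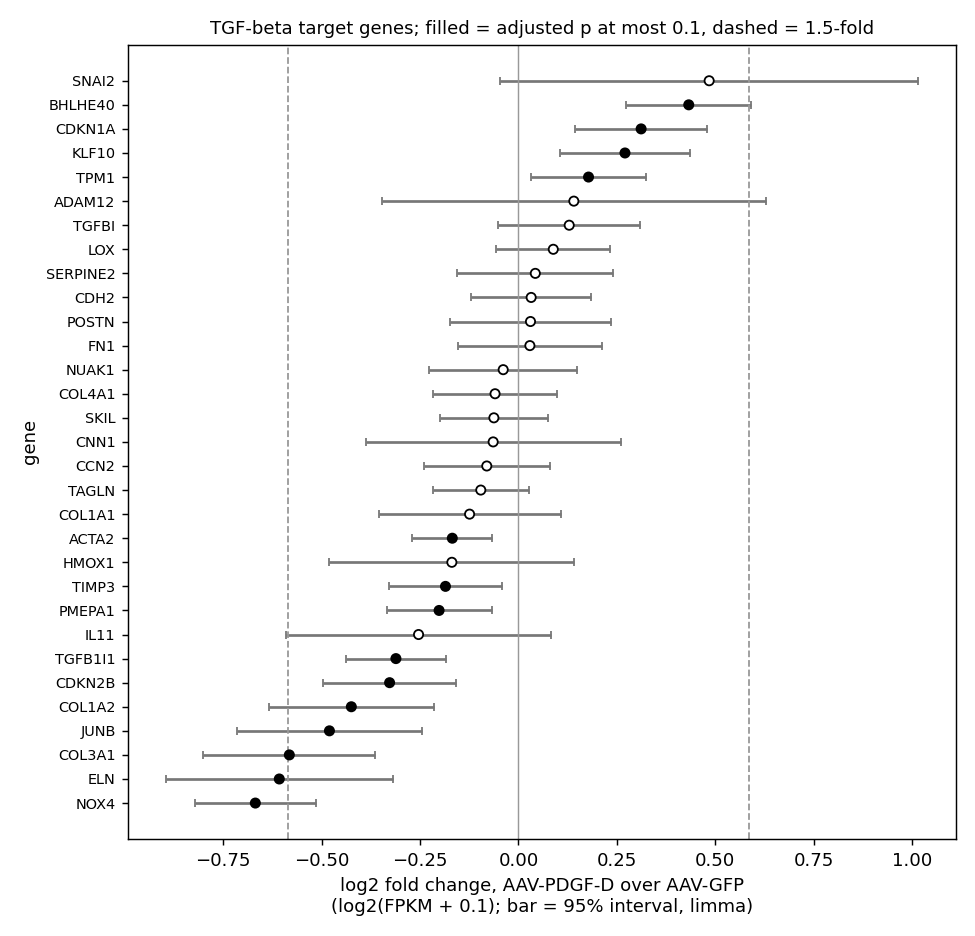
Log2 fold change of the 31 target genes that could be called, AAV-PDGF-D over AAV-GFP, on log2(FPKM + 0.1), with 95% intervals from limma, filled at an adjusted p of at most 0.1 and dashed lines at 1.5-fold. Filled points lie on both sides, 10 left and 4 right of 0, with NOX4 at -0.67 and ELN at -0.61 the only ones beyond a dashed line.

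Markers of other cell types differed between the labels as well, and several are themselves TGF-beta targets (COL1A1, COL1A2, COL3A1, ACTA2, TAGLN and CNN1) or latency genes (DCN). Counts by the adjusted p stand against 20.9% of all rows higher and 11.7% lower. Of 9 fibroblast markers, 1 was higher and 5 lower by the adjusted p, and their summed level ran from 319 to 338 FPKM in the AAV-PDGF-D libraries and from 334 to 385 FPKM in the AAV-GFP libraries. Of 8 pericyte and smooth muscle markers, 1 was higher and 3 lower, with sums from 1805 to 1885 FPKM in the AAV-PDGF-D libraries and from 1915 to 2091 FPKM in the AAV-GFP libraries, and MYH11, the defining smooth muscle myosin, was near 0 at a mean of 0.0171 FPKM. Of 12 pigment epithelium markers, 1 was higher and 6 lower, with sums from 3630 to 3711 FPKM in the AAV-PDGF-D libraries and from 3475 to 3619 FPKM in the AAV-GFP libraries. Most of that sum came from genes common to simple epithelia, KRT8 at a mean of 1277 FPKM, KRT18 at 769 FPKM and EZR at 719 FPKM, and KRT8 was the one that was higher. Those called lower were PMEL and TYRP1, of melanosomes. The 2 endothelial markers that could be called, KDR and EGFL7, were both lower by the adjusted p, with sums over the list from 32.5 to 37.3 FPKM in the AAV-PDGF-D libraries and from 39.8 to 40.5 FPKM in the AAV-GFP libraries. Of 2 macrophage markers that could be called, CD68 was higher by the adjusted p and CSF1R was called lower. The sums over the list ran from 21.2 to 22.1 FPKM in the AAV-PDGF-D libraries and from 18.2 to 20.7 FPKM in the AAV-GFP libraries. Nearly all of that sum was CD68, at a mean of 19.6 FPKM. Of the 7 macrophage markers with a row, 5 averaged below 0.1 FPKM, so the sum is not a level of macrophage markers in general. The part of these markers in the differences above was not tested. Without both libraries that hold hemoglobin, TGFBR2 was still past the adjusted p, and NOX4 and ELN were still called lower. TGFB1 no longer passed in that fit (-0.24, adjusted p = 0.159), which has fewer libraries in each group.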

How the data were processed

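The deposited table gives FPKM per gene and library, which the authors computed. Per the study's methods, reads were aligned with STAR 2.4.2a to mm10, a mouse build, and quantified with RSEM 1.2.29. The rows are human genes, and which build and annotation lie behind them, and whether counting used strand, is not given in the sources used here. Besides gene identifiers, the deposited table has a column for each of the 6 libraries and no others (0 columns were left unused). It holds no counts, so DESeq2, the study's tool, was not run. Read depth is unknown. Library differences in the lowest values put the relative depth between 1 and 1.19, and FPKM summed to between 499393 and 518405 per library. FPKM estimates can be shared between near-identical genes, which cannot be checked here.

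Groups were taken from the labels and compared on log2(FPKM + 0.1) by limma 3.58.1 (R 4.3.3), its variance prior following the mean level. The fit took in the 13821 rows averaging 0.1 FPKM or more, and Benjamini-Hochberg adjustment ran over all of them. A call needed 3 things, namely an adjusted p up to 0.1, a change of 1.5-fold or more, and an average of 1 FPKM or more. The last was met by 11444 rows. These thresholds follow the study's methods. For low FPKM the pseudocount makes folds come out smaller than they are. The fit was tried on simulated data with independent noise, in which changes of 1.5-fold or more were planted in the more abundant rows. That trial does not cover smaller changes or rows of low level.

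The members and lists were chosen with earlier results of these data known. Beside the members, the text names in each list up to 4 called genes, by size of change, and the 2 most abundant, and other genes as chosen after their values were seen. One item is not reported here, and list counts leave it out. CCN2 was matched by its older symbol. The alternatives were a pseudocount of 1 or 0.01, other filters, scalings, variance models and thresholds, a replicate block, and leaving out libraries. Their use on the count of members past the adjusted p and on genes other than members was added after the values were seen. Libraries with the same replicate number did not deviate together (residual correlations -0.2, 0.0039 and -0.13), so the number was not taken as pairing. Between libraries of different numbers the correlations ran from -0.19 to 0.29. The highest was that of AAV-PDGF-D replicate 3 with AAV-GFP replicate 1, the libraries with hemoglobin.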

Additional observations from a re-analysis of the deposited data

How the results depend on the processing

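No member was called under any alternative that kept the fold threshold. Over 17 alternatives for each of the 10 members, 170 values in all, 140 kept their direction and side of the adjusted p, 9 lost it (all TGFB1), 3 gained it (all SMAD3) and 18 changed sign, none of them past the adjusted p. With no fold threshold the calls were 2396 rows higher and 1341 lower, 2 members, 5 latency genes, 3 genes of the activin list, 1 other receptor, 1 other SMAD, 7 regulators and 14 targets. A pseudocount of 1 left 148 rows higher, 110 lower and 1 target (NOX4). TPM scaling, with the mean of 1 asked in TPM, left 12266 rows that could be called and gave 323 rows lower. It and median-of-ratios scaling each called 1 regulator (LDLRAD4), as did leaving out both libraries with hemoglobin. Those scalings moved the share of calls that were higher to 43.8% and 43.4%, against 53.5% as deposited. The members past the adjusted p were 1 in place of 2 with no filter, no variance trend, the replicate block, an adjusted p of at most 0.05, or without both libraries with hemoglobin. With the replicate block PMEPA1 and TPM1 no longer passed either, and no other call changed among the named genes that were refitted.

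Leaving out 1 library at a time gave 213 to 271 rows higher, 140 to 232 lower, 1 to 2 members past the adjusted p, 0 to 1 latency genes, 0 to 1 regulators and 1 to 3 targets. Log2 fold changes then ran from -0.022 to 0.086 for TGFB2, -0.30 to 0.045 for TGFB3, -0.087 to 0.020 for TGFBR1, -0.074 to 0.075 for TGFBR3, -0.096 to 0.010 for SMAD2, -0.13 to 0.11 for INHBA, -0.052 to 0.013 for BAMBI and -0.043 to 0.0066 for SMAD4. Signs also turned for TGFBR3 (-0.026) and INHBA (-0.012) with TPM scaling, for TGFB2 (-0.0018), TGFBR3 (-0.031) and INHBA (-0.018) with median-of-ratios scaling, and for TGFB2 (-0.018) and BAMBI (0.023) without both libraries with hemoglobin. For these genes a direction cannot be given, and the cause was not tested. Depth is unknown, so counting error at TGFB3, TGFBR3, INHBA and LDLRAD4 could not be set apart from the spread between libraries.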
